A study of Mus musculus with 18 samples.

Results

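The genes described here encode the proteins of the cytosolic ribosome, together with their expressed paralogs, in mouse embryonic stem cells (ESCs), induced pluripotent stem cells (iPSCs) and mouse embryonic fibroblasts (MEF cells). Members were chosen by name: every gene called Rpl, Rps, Rplp or Rpsa with a number and at most a short suffix, with names ending in -ps left out. This rule gave 89 of the 55469 genes listed. The annotation made 77 of them main copies, 46 of the large and 31 of the small subunit. The paralogs Rpl10l, Rpl39l, Rpl3l, Rpl22l1 and Rps4l are shown apart from their main copies, as are the like-named Rpl7l1 and Rps27l. The remaining 5 (Rpl6l, Rpl32l, Rps12l1, Rps3a2 and Rps3a3) are annotated as processed pseudogenes, and Rps4l as a transcribed processed pseudogene.

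RNA-Seq was done on 18 libraries. The question of the study was whether continuous expression of Oct4, Sox2, Klf4 and Myc (OSKM) can hold mouse cells in a pluripotent state without growth factors and inhibitors. A single ESC line from a cross of (C57BL/6 x 129S4/SvJae)F1 with (CBA/CaJ X C57BL/6J)F2, carrying the reverse transactivator M2rtTA in Rosa26, a polycistronic OSKM cassette in Col1a1 and an Oct4-GFP reporter, was kept in N2B27 medium with doxycycline (OSKM-ESCs) or with MEK and GSK3 inhibitors and LIF (2iL-ESCs). Each medium gave 2 libraries at each of days 18, 25 and 38, so 6 per medium. The iPSCs and the MEF cells carried the same transactivator and OSKM cassette on a (C57BL/6 x 129S4/SvJae)F1 background. OSKM-iPSCs were 2 clones, clone 1 at passage 7 and clone 3 at passage 6, in N2B27 with doxycycline. 2iL-iPSCs were also 2 clones, clone 3 at passage 2 and clone 6 at passage 3, so passage and medium cannot be told apart. The labels give N2B27 with doxycycline for the 2iL-iPSC cultures while the study's methods give 2iL medium without it, and the clones were grouped by their titles. MEF cells, 2 libraries at passage 4, were the starting cells of reprogramming. ESCs and iPSCs were grown on MEF feeders, whose RNA can be in their libraries. Nothing in the labels says that libraries of a group came from separate animals, so p-values measure the spread between these cultures and clones.

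The ribosome joins a small subunit, which reads the mRNA, to a large subunit, which forms the peptide bonds. Its proteins are needed in near-equal numbers, and their mRNAs are among the most abundant of growing cells. Many of these mRNAs begin with a C followed by a run of pyrimidines, the terminal oligopyrimidine (TOP) tract, through which mTOR and LARP1 control their translation. Most mammalian ribosomal protein genes have left processed pseudogenes in the genome. A few also have expressed autosomal paralogs, of which Rpl10l and Rpl39l are best known from male germ cells, where the X chromosome with Rpl10 and Rpl39 is silenced.

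Values are FPKM, fragments per kilobase of transcript scaled to the mapped fragments of the library, so that levels can be compared between genes. The files hold no read counts, and the depth of a library is known only in part: the mean base coverage of a transcript at 1 FPKM ran from 2.99 to 3.62 over the libraries. Between 11303 and 12095 genes had over 1 FPKM. All 10 pluripotency markers of a fixed list had a mean over 1 FPKM in each ESC and iPSC group, and their summed level was 1.15 to 2.06 FPKM in MEF cells, where 7 of them, including Pou5f1 and Nanog, were listed at 0. The summed level of 12 fibroblast markers was 1197.4 to 1359.4 FPKM in MEF cells, 22.4 to 34.9 in OSKM-ESCs and 5.25 to 6.77 in 2iL-ESCs. In OSKM-iPSCs the sums were 92.8 FPKM in clone 1 and 7.34 in clone 3. Of 7 male germ cell markers, 4 had a mean over 1 FPKM in 2iL-ESCs and 2 in OSKM-ESCs, and Prm1 was at 0 in both. The first library of day 18 stood apart among the OSKM-ESCs, with main copies a median of 0.39 higher on the log2 scale than in its partner, and the first 2iL-ESC library of day 18 exceeded its partner by 0.21.

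The sequences that decide whether reads can be shared are those of the paralogs and their main copies. The first 90 coding bases, or for Rps4l the bases aligned to them, are printed from the annotated transcripts (GENCODE M21, GRCm38), 5′ to 3′, with bases that differ within a pair in capitals.
Rpl10: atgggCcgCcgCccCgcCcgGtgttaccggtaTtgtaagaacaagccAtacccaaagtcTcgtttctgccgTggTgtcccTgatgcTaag
Rpl10l: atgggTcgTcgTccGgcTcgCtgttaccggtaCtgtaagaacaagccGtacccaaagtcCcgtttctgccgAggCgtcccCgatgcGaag
Rpl39: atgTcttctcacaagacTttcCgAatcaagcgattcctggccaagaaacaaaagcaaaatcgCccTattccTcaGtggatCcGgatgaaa
Rpl39l: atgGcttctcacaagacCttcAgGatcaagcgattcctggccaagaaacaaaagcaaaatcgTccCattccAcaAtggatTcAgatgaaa
Rps4x: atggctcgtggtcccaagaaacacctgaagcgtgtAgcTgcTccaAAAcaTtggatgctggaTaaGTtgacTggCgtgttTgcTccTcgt
Rps4l: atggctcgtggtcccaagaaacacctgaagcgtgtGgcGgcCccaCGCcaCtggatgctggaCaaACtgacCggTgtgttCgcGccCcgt

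Over the whole coding sequence, Rpl10l (chr12:66283379-66284401, minus strand, a single exon) was 84.7% identical to X-linked Rpl10 (chrX:74270812-74273135, 7 exons). The longest run of bases shared by the whole transcripts of this pair, at any position, was 23, and the runs below are of the same kind. Rpl39l (chr16:10170226-10174911, plus strand, 3 exons) was 85% identical to X-linked Rpl39 (chrX:37082520-37085402), with a longest run of 38 bases. Rps4l (chr6:148354656-148355598, plus strand) was 79.6% identical to X-linked Rps4x (chrX:102184941-102189394), also with a longest run of 38 bases. Rpl22l1 was 69.4% identical to Rpl22 and Rpl3l 74.3% to Rpl3, with longest runs of 26 and 22 bases. No paralog shared a stretch of 50 bases with its main copy, so no exact match of 50 bases or longer to the annotated transcripts fits both genes of a pair. The paralogs had other near copies. Rpl10l shared 7.6% of its 50-base stretches with the pseudogene Gm14460, Rps4l 14.9% with Rps4l-ps and Rpl22l1 12.8% with pseudogenes.

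The main copies were different in this respect. In 76 of 77, at least 1 stretch of 50 bases recurred in another annotated gene. The median share of such stretches was 21% of those in all annotated transcripts of a gene, which can understate the sharing of its main transcript. The study kept uniquely mapped reads, so reads from such stretches were lost or given to whichever copy matched best. Pseudogene copies differed from their main copies by a few bases. The pairs below show the 90 coding bases with the most differences for Rps2 against Rps2-ps13 (coding bases 1 to 90) and for Rps3a1 against Rps3a3 (coding bases 172 to 261), again with differing bases in capitals.
Rps2: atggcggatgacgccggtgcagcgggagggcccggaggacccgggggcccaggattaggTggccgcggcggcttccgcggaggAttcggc
Rps2-ps13: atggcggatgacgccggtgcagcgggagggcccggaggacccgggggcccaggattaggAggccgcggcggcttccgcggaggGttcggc
Rps3a1: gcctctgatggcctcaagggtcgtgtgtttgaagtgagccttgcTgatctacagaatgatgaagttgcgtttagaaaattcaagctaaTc
Rps3a3: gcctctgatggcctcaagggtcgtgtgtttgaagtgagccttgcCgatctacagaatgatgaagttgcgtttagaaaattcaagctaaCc
Rps2-ps13 was 99.2% identical to Rps2, Gm15772 was 99.5% identical to Rpl26, and Rps3a2 and Rps3a3 were 99.5% and 98.9% identical to Rps3a1.

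At the start sites, RefSeq promoters (GRCm38.p6, 250 bases before and 50 after the start) matched 64 members by symbol, 57 of them main copies. A C followed by at least 4 C or T exactly at the start was found in 13 of the 57 main copies (22.8%), against 3.01% of all 27025 symbols. The X-linked main copies Rpl10, Rpl39 and Rps4x were among those without it. Only the listed start base was searched, so a run of C and T a few bases away was not counted. The windows below hold 15 bases on each side of the start, with that tract in capitals. They are given for 6 main copies that have it and for Rpl10l and Rpl39l, where, as in Rpl10 and Rpl39, these letters were not in this position. In Rpl39l a run of C and T lies directly before the start.
Rpl15 (chr14:18270972-18271001, minus strand): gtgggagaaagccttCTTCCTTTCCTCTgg
Rpl35 (chr2:39005117-39005146, minus strand): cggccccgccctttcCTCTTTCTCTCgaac
Rpl35a (chr16:33056467-33056496, plus strand): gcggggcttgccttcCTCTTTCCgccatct
Rpl38 (chr11:114668565-114668594, plus strand): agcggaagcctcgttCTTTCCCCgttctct
Rps10 (chr17:27635230-27635259, minus strand): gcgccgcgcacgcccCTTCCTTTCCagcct
Rps15a (chr7:118116133-118116162, minus strand): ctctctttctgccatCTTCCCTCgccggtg
Rpl10l (chr12:66284387-66284416, minus strand): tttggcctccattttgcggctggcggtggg
Rpl39l (chr16:10170213-10170242, plus strand): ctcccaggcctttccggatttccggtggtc
Of the other motifs searched on both strands of the 300 bases, CCGGAAG was in 42.1% of the main copies and 9.93% of all symbols, GGGCGG in 61.4% and 38.2%, CACGTG in 6 of 57 main copies and 8.09% of all symbols, and AAGATGGC in 8.77% and 3.19%. CCGGAAG was also in the 300 bases of both Rpl39 and Rpl39l, and GGGCGG in those of Rpl10, Rpl10l and Rps4x. The 250 bases before the start held a median of 18 CG dinucleotides in main copies and 6 over all symbols, with 8 at Rpl10l and 12 at Rpl39l.

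Together the members took a large share of the transcriptome. Their summed FPKM was 15.3% ± 1.76 of all FPKM in OSKM-ESCs and 16% ± 1.64 in 2iL-ESCs (mean ± SD, n = 6 each), with ranges of 13.7 to 18.6% and 14.2 to 18.8% that overlapped. The share was 15.7 and 17.7% in OSKM-iPSC clones 1 and 3, 17.3 and 19.4% in 2iL-iPSC clones 3 and 6, and 12.5 and 12.2% in MEF cells, below every ESC and iPSC library. The sum counts Rps3a2 and Rps3a3 but no pseudogene copies outside the name rule. Of those, Rps2-ps13 had 1619.7 and 1587.6 FPKM in MEF cells and at most 5.47 elsewhere. Rpl34-ps1 had 132 and 135 FPKM in MEF cells and 219 to 273 in iPSCs. A share with such copies was not computed. In both media the first library of day 18 was the highest.

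**Figure D1:**
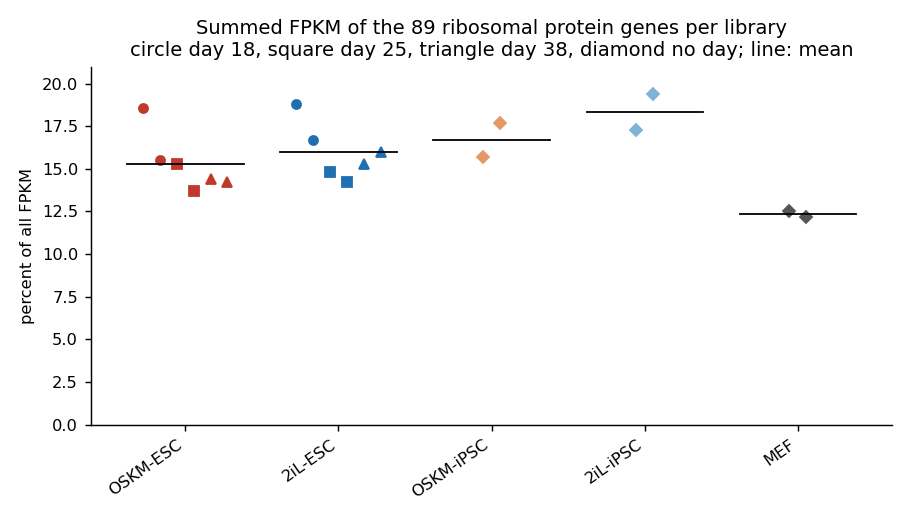
Summed FPKM of the 89 genes as a percent of all FPKM, 1 point per library (circles day 18, squares day 25, triangles day 38, diamonds cells without a day), with a line at each group's mean. The MEF points lie at 12.2 and 12.5%, under all others, and the ranges of OSKM-ESCs and 2iL-ESCs overlap. Pseudogene copies outside the name rule are not in the sum.

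All 77 main copies had over 1 FPKM in every library, with a lowest value of 31 and a highest of 3105.8. Their levels were far from equal: the median of the mean FPKM was 802. Rps2, a small-subunit protein, was the highest main copy in OSKM-ESCs (2634.9 FPKM), 2iL-ESCs (2525) and OSKM-iPSCs (2140.9). Rplp1, a protein of the large-subunit stalk, was highest in 2iL-iPSCs (2437.8) and Rplp0, the base of that stalk, in MEF cells (1763.8). Rps15a was the lowest in both ESC groups (103 and 90.1 FPKM). Over all its annotated transcripts, 322 of 6293 stretches of 50 bases were in other genes (5.1%). Its main coding transcript has only 640 bases, so this share can understate the sharing of that transcript. The order of the 77 levels was alike in the ESC media (Spearman's rho 0.988) and the iPSC media (0.982), and less so between OSKM-iPSCs and MEF cells (0.798), as a description across genes, which share their libraries.

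In ESCs, Rpl10l, Rpl39l, Rps4l and Rpl3l had ranges that did not overlap between the media, and no main copy did. Over all 14016 genes tested, 26.7% had such ranges, and for Rpl3l the filter fixed the direction. Rpl10l had 2.52, 2.8, 6.83, 8.54, 1.47 and 1.33 FPKM in the OSKM-ESC libraries of days 18, 25 and 38, and 102, 104, 81.8, 76.2, 79.8 and 79.8 FPKM in the 2iL-ESC libraries. Every 2iL-ESC library was above every OSKM-ESC library, and day 25 was the highest of the OSKM-ESCs. The difference was -4.37 ± 0.25 on the log2(FPKM + 1) scale (OSKM-ESC minus 2iL-ESC, ± SE, limma adjusted p = 6.2e-08). Rpl10l made up 6.99% of Rpl10l plus Rpl10 FPKM in 2iL-ESCs and 0.326% in OSKM-ESCs. Rpl10 itself, a protein of the subunit interface, had 949 to 1413.9 FPKM over these libraries and a difference of 0.1 ± 0.05, which was not called (limma adjusted p = 0.14).

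Rpl39l encodes a copy of the small exit-tunnel protein Rpl39. It had 1.1, 0.362, 3.55, 2.47, 0.378 and 0.131 FPKM in OSKM-ESCs and 47.8, 33.9, 9.53, 9.43, 15.7 and 17.3 FPKM in 2iL-ESCs, in the same order of days. The ranges did not overlap, and day 18 held the highest 2iL-ESC values. The difference was -3.27 ± 0.42 (limma adjusted p = 4.2e-05), against -0.01 ± 0.11 for Rpl39 (adjusted p = 0.95). Rpl39l was 9.83% of the pair in 2iL-ESCs and 0.75% in OSKM-ESCs.

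Rps4l was by far the most abundant of the autosomal copies. Its FPKM was 199, 190, 365, 289, 88.5 and 95.4 in OSKM-ESCs and 602, 529, 407, 403, 476 and 464 in 2iL-ESCs. The groups did not overlap, but the gap was narrow on day 25 and wide on day 38. The difference was -1.4 ± 0.25 (limma adjusted p = 0.00056), and Rps4l made up 15.7% of Rps4l plus Rps4x in OSKM-ESCs and 28.8% in 2iL-ESCs. Its main copy Rps4x, a small-subunit protein, differed by -0.14 ± 0.06 (adjusted p = 0.048), close to the threshold of 0.05, and lost the call in 10 of the 12 fits that left out a library. Rpl3l, known from striated muscle, was at or below 0.291 FPKM in all OSKM-ESC libraries and at 0.551 to 1.16 FPKM in the 2iL-ESCs. It passed the filter through a single 2iL-ESC library over 1 FPKM, which fixed the direction, so no test is given for it. Rpl22l1, the paralog of the RNA-binding protein Rpl22, ran from 84.1 to 192 FPKM in OSKM-ESCs and from 107 to 138 FPKM in 2iL-ESCs, and its difference was 0.11 ± 0.09 (adjusted p = 0.35). Of the like-named pair, Rpl7l1 was lower by 0.31 (SE 0.06) on the log2 scale in OSKM-ESCs (limma adjusted p = 0.0014), with 73.6 to 100 FPKM against 88.9 to 136, and the p53 target Rps27l differed by 0.17 ± 0.08 (adjusted p = 0.087).

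By an exact two-sided permutation test over the 6 against 6 libraries, the difference had p = 0.0022 for each of Rpl10l, Rpl39l and Rps4l, the smallest value this design can give. With Rpl3l, whose direction the filter fixed, they were the 4 of 86 members tested whose ranges did not overlap, while 26.7% of the 14016 genes tested had ranges that did not overlap. No main copy was among them. The germ cell markers of the fixed list moved in the same direction: 4 of 7 were tested and all 4 were called lower in OSKM-ESCs, with a median difference of -1.28. Of all genes, 24.4% were called lower and 29.5% higher. Of 12 fibroblast markers 10 passed the filter in OSKM-ESC libraries and only 3 in 2iL-ESC libraries. For the rest the filter fixed the direction, so no test is given for that list. Of 10 pluripotency markers 2 were higher and 6 lower (median -0.9). The part of these cells and states in the result was not tested. In bulk libraries fewer cells with a gene's mRNA and less of it per cell cannot be told apart.

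**Figure D2:**
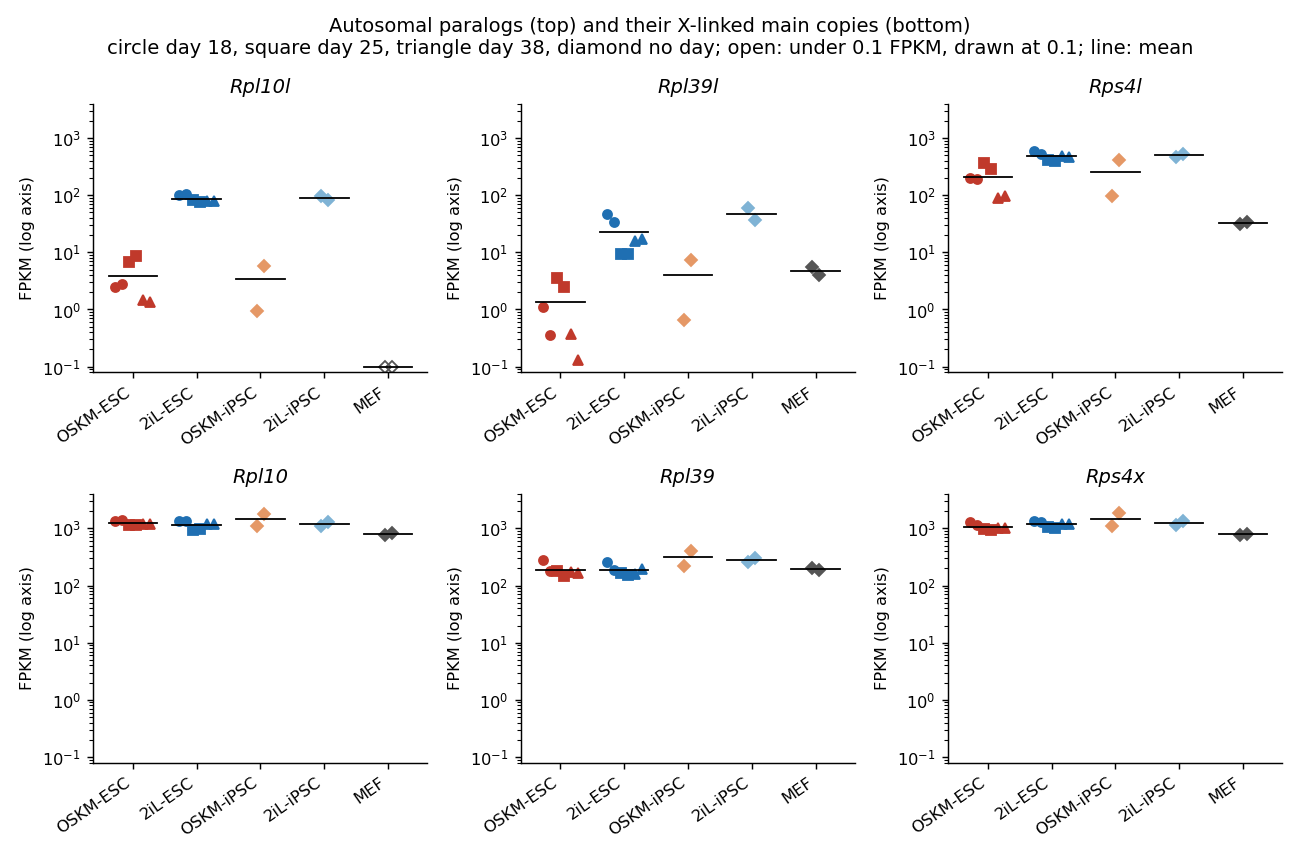
FPKM on a log axis of 3 autosomal paralogs (top) and their X-linked main copies (bottom), 1 point per library (circles day 18, squares day 25, triangles day 38, diamonds cells without a day; open symbols lie under 0.1 FPKM), with a line at each group's mean. Rpl10l sits at 76.2 to 104 FPKM in 2iL-ESCs and at 1.33 to 8.54 FPKM in OSKM-ESCs, while Rpl10 overlaps between the media.

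The difference between media changed with the day for some paralogs. The medium-by-day interaction was called for 4 of 86 members tested, against 37.9% of all genes, and all 4 were paralogs: Rpl10l (adjusted p = 3e-05, limma), Rps4l (5.1e-05), Rpl39l (0.00022) and Rpl22l1 (0.035). For Rps4l the log2 differences were -1.53 on day 18, -0.32 on day 25 and -2.34 on day 38. For Rpl10l they were -4.83, -3.21 and -5.07, and for Rpl39l -4.61, -1.4 and -3.81, so that day 25 had the smallest gap in each case. Rpl22l1 changed sign, from 0.37 on day 18 to -0.21 on day 25 and 0.17 on day 38. No main copy was called, and 1 of 77 had an unadjusted p under 0.05. Without the first OSKM-ESC library of day 18 the count of members rose to 15, and without the second to 9.

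The main copies differed little between the media. In all, 17 of 86 members tested were called, 1 higher and 16 lower in OSKM-ESCs. That is 19.8% of those tested against 53.8% of all genes (29.5% higher and 24.4% lower). The 16 include Rpl3l, whose direction the filter fixed. Among the 77 main copies 12 were called, 1 higher and 11 lower. Their median difference was -0.09, between -0.51 and 0.31, with 61 of 77 below 0, and the median of all genes was 0.03. Quantile normalization gave 6 members higher and 11 lower, TPM 4 and 12, and the median of main copies was -0.01 and -0.05. Under median-ratio scaling none was higher and 18 were lower, with a median of -0.14. Leaving out the first OSKM-ESC library of day 18 gave 27 lower, and leaving out the first library of day 38 gave 9.

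Rpl13, a large-subunit protein, fell most among the main copies, with 1692.1, 1295.9, 1400.7, 1131.5, 1066.2 and 1127.6 FPKM in OSKM-ESCs and 2243.8, 1892.3, 1718.9, 1608.2, 1715.1 and 1706.8 FPKM in 2iL-ESCs. Only the first OSKM-ESC library of day 18 reached into the range of the 2iL-ESCs. Rpl13 differed by -0.51 ± 0.09 (limma adjusted p = 0.00038, exact permutation p = 0.0043), and by -0.48, -0.4 and -0.64 on the 3 days. Rps24, a small-subunit protein whose gene is mutated in some patients with Diamond-Blackfan anaemia, was lower by 0.35 (SE 0.06, limma adjusted p = 3e-04), with 722 to 1108 against 912 to 1299 FPKM. Rpl13a, a large-subunit protein that is released to silence mRNAs in the interferon response, was lower by 0.33 (SE 0.06, adjusted p = 0.00047), and Rpl8 by 0.24 (adjusted p = 0.028). Rpl6, Rpl7, Rpl9, Rpl17, Rps4x and the mTOR pathway target Rps6 were also called, and were lower by at most 0.2. Their exact permutation p-values ran from 0.074 to 0.17, against 0.015, 0.013 and 0.028 for Rps24, Rpl13a and Rpl8. Of the 12 fits that left out a library, Rpl7 lost its call in 10 and Rpl8 in 7.

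The exception was Rpl15, a core protein of the large subunit. It had 688, 540, 513, 461, 495 and 501 FPKM in OSKM-ESCs and 567, 528, 339, 320, 420 and 438 FPKM in 2iL-ESCs. The difference was 0.31 ± 0.08 (limma adjusted p = 0.0074), but the exact permutation test gave p = 0.087. The gap was largest on day 25 (0.56), against 0.16 and 0.22 on days 18 and 38, and the ranges overlapped. Under median-ratio scaling Rpl15 was not called (0.26).

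The stalk proteins were not called: Rplp0 differed by 0.14 ± 0.07, Rplp1 by -0.01 ± 0.1 and Rplp2 by -0.07 ± 0.1 (limma adjusted p = 0.12, 0.92 and 0.57). Nor were Rpl5 (-0.13 ± 0.05, adjusted p = 0.054) and Rpl11 (-0.09 ± 0.1, adjusted p = 0.48), which bind Mdm2 when ribosome assembly fails, Rps19 (0.06 ± 0.06, adjusted p = 0.44), a further Diamond-Blackfan gene, Rpl38 (0.01 ± 0.14, adjusted p = 0.98), required for the translation of some Hox mRNAs, Rpsa (-0.08 ± 0.07) or the ubiquitin fusion Rps27a (-0.09 ± 0.07, both adjusted p = 0.32).

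Genes around the ribosome were compared with the same fit. Of all genes 53.8% were called. Of 17 other TOP mRNAs, 1 was higher and 5 were lower, with a median of -0.02 and 35.3% called. Of 78 mitochondrial ribosomal proteins, 23 were higher and 15 lower, with a median of 0.04 and 48.7% called. Of 17 regulators of ribosomal protein mRNAs and growth, 16 were tested, 7 were higher and 2 lower. The 56.2% called was near the share of all genes. Myc, which drives the transcription of ribosomal genes, had 67.9 to 141 FPKM in OSKM-ESCs and 7.57 to 13.6 in 2iL-ESCs, a log2 difference of 3.35 ± 0.18 (adjusted p = 3.3e-08); reads from the transgene and the endogenous gene cannot be told apart. Larp1 was also higher, by 0.49 ± 0.07 (adjusted p = 0.00013).

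**Figure D3:**
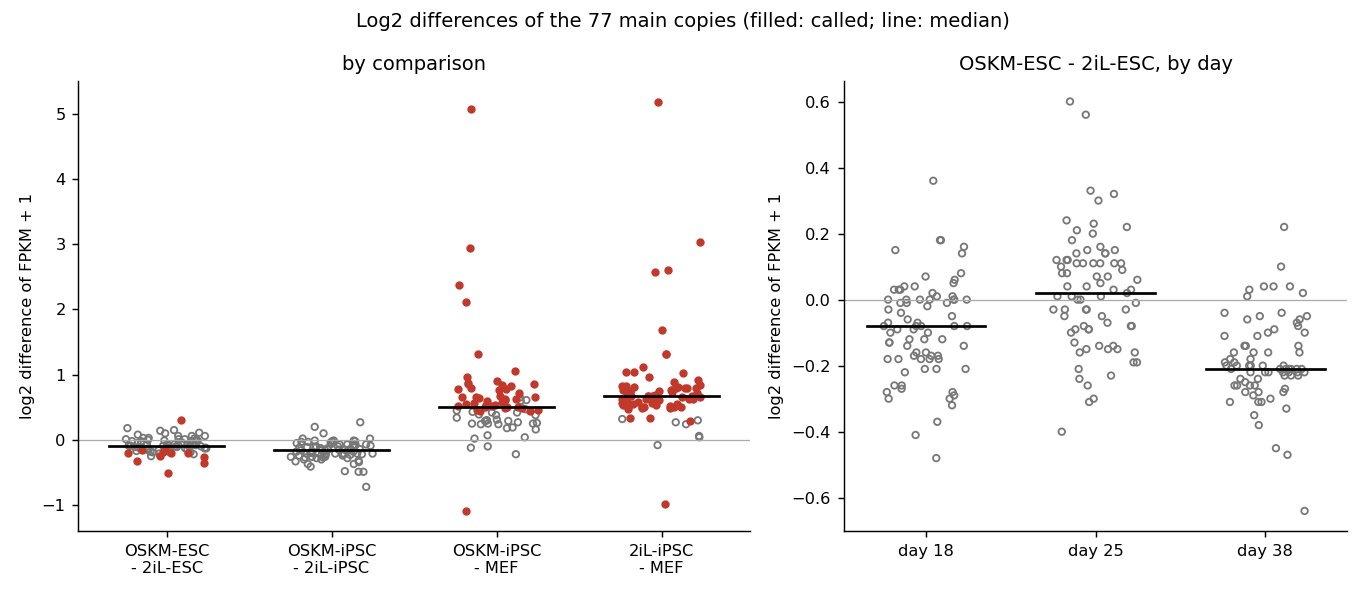
Log2 differences of FPKM + 1 for the 77 main copies, in 4 comparisons (left) and for OSKM-ESCs minus 2iL-ESCs on each day (right), 1 point per gene, with filled points called at an adjusted p under 0.05 on the left, none marked on the right, and a line at each median. Medians lie at -0.09 and -0.16 for the media and at 0.5 and 0.67 against MEF cells.

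Over time in culture, 61 of 77 main copies passed the test over days in 2iL-ESCs and 9 of 77 in OSKM-ESCs, while the medium-by-day interaction was called for none. From day 18 to day 25 the log2 difference of the 77 main copies had a median of -0.34 in OSKM-ESCs, between -0.65 and -0.03, and of -0.44 in 2iL-ESCs, with 1 above 0. The OSKM-ESC step was smaller than the median of 0.39 between the first and second OSKM-ESC libraries of day 18. From day 25 to day 38 the media differed in their medians: the median was 0.2 in 2iL-ESCs, with 71 of 77 above 0, and -0.01 in OSKM-ESCs, with 36 above 0. The days differed for 67 of 86 members tested in 2iL-ESCs, against 50.8% of all genes, and for 15 of 84 in OSKM-ESCs, against 38.6%. The OSKM-ESC count rests on single libraries: it was 59 without the second library of day 18, and 4 and 5 without the first and second of day 38. The 2iL-ESC count was 42 and 30 without the first and second library of day 25.

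Rpl35, a large-subunit protein at the mouth of the exit tunnel, had some of the widest steps, -0.65 in OSKM-ESCs and -0.74 in 2iL-ESCs from day 18 to day 25 (limma adjusted p over days = 0.018 and 0.0012). Rpl15 fell by 0.73 in 2iL-ESCs and rose by 0.38 to day 38 (adjusted p = 0.00088), and its OSKM-ESC change over days was not called (adjusted p = 0.15). Among the paralogs, Rpl10l, Rpl39l and Rps4l ran differently in OSKM-ESCs. They were higher on day 25 than on day 18, by 1.24, 1.23 and 0.73. From day 25 to day 38 they changed by -1.85, -1.67 and -1.81 (limma adjusted p over days = 6e-04, 0.0062 and 0.00051). Rpl22l1 went the other way, by -0.9 to day 25 and 0.44 to day 38 (adjusted p = 0.0077).

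Transcript length moved with the spread between partner libraries. Main copies were split by the length of the transcript with the longest coding sequence, and the 25 shortest (up to 589 bases) were set beside the 25 longest (from 860 bases). Between the OSKM-ESC libraries of day 18 the median log2 difference was 0.54 for the shortest and 0.28 for the longest, and between the 2iL-ESC libraries of that day 0.34 and 0.13. Other partners differed less by length: on day 25 the medians were 0.26 and 0.08 in OSKM-ESCs, 0.11 and 0.04 in 2iL-ESCs, and they were -0.24 and -0.17 for the 2iL-iPSC clones. Between groups the values were -0.07 and -0.12 for OSKM-ESCs minus 2iL-ESCs, -0.21 and -0.13 for OSKM-iPSCs minus 2iL-iPSCs, 0.47 and 0.49 for OSKM-iPSCs minus MEF cells and 0.65 and 0.67 for 2iL-iPSCs minus MEF cells. The part of length in the results was not tested.

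In iPSCs, Rpl10l and Rpl39l again separated the media. Rpl10l had 0.922 and 5.82 FPKM in OSKM-iPSC clones 1 and 3 and 97 and 81.8 FPKM in 2iL-iPSC clones 3 and 6, a difference of -4.64 ± 0.57 (limma adjusted p = 0.018). Rpl39l had 0.641 and 7.32 against 58.8 and 36.6 FPKM, a difference of -3.68 ± 0.75 (adjusted p = 0.046). For each gene the OSKM-iPSC clones lay below the 2iL-iPSC clones without overlap, and clone 3 lay above clone 1. Rps4l had 98.2 FPKM in clone 1 but 416 in clone 3, near the 469 and 534 FPKM of the 2iL-iPSCs, and its difference of -1.3 ± 0.64 was not called (adjusted p = 0.24). Clone 1 also had the higher fibroblast marker sum and the lower pluripotency marker sum (1210.9 against 1873.2 FPKM in clone 3), and the part of these cells in the result was not tested. With 2 clones per medium an exact permutation test cannot go below p = 0.333. Leaving out either 2iL-iPSC clone ended both calls, with 0 members called lower, while Rps4l was called without OSKM-iPSC clone 3, which gave 3.

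These were the only members called, 2 of 85 tested and both lower, against 7.96% of all genes (5% higher and 2.96% lower). None of the 77 main copies was called, and 3 had an unadjusted p under 0.05: Rps29, Rps28 and Rpl13a, at -0.72 ± 0.19, -0.49 ± 0.19 and -0.48 ± 0.14 (limma adjusted p = 0.077, 0.17 and 0.1). The median difference was -0.16, with 72 of 77 below 0 and a median of 0.09 over all genes. A fit of all groups together, which estimates the spread from all libraries, called 8 members lower.

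Among the 5 main copies above 0 were Rpl10, Rps4x, Rpl39 and Rpl36a, which are all the X-linked main copies. They were high in 1 of the clones. Rpl10 had 1121 and 1809.3 FPKM in OSKM-iPSC clones 1 and 3, Rps4x 1104 and 1833.4, Rpl39 221 and 410, and Rpl36a 486 and 898. In clone 3 these were 1.61, 1.66, 1.85 and 1.84 times their level in clone 1. On the log2 scale the 4 X-linked main copies were 0.69 to 0.88 higher in clone 3, and the 73 autosomal ones were between -0.47 and 0.46, with a median of 0.22. The whole chromosome moved the same way: the median over 272 X-linked genes with a mean over 5 FPKM was 0.45, and over 8222 autosomal genes -0.02. Set against the mean of the 2iL-iPSCs, all X-linked genes had a median of 0.72 in clone 3 and 0.3 in clone 1. These are values of 2 clones, with no replicate of either, and were not tested.

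**Figure D4:**
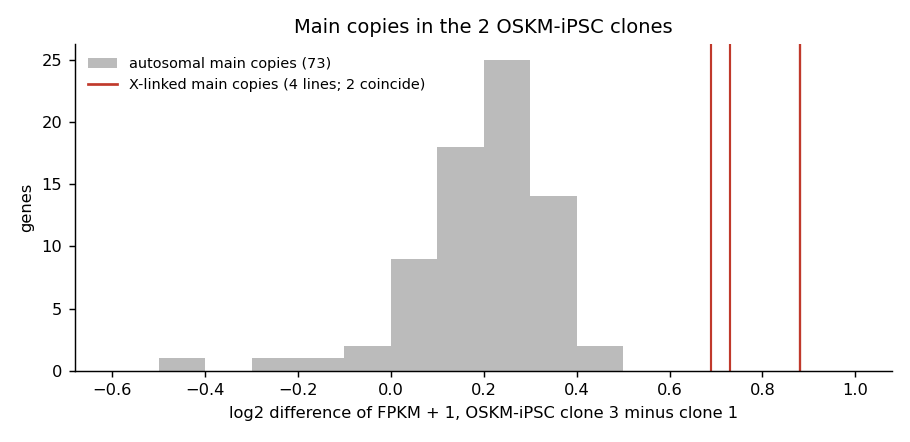
Number of autosomal main copies (grey bars) by their log2 difference of FPKM + 1 between OSKM-iPSC clones 3 and 1, with the 4 X-linked main copies as red lines. The X-linked genes lie at 0.69 to 0.88, beyond the highest autosomal value of 0.46.

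Both kinds of iPSC had more ribosomal protein mRNA than MEF cells. In OSKM-iPSCs 48 of 85 members tested were called, 47 higher and 1 lower, which is 56.5% against 60.3% of all genes (34% higher and 26.4% lower). The median difference of main copies was 0.5, with 73 of 77 above 0, and the median of all genes was 0.19. In 2iL-iPSCs 77 of 85 were called, 76 higher and 1 lower, which is 90.6% against 78% of all genes (40.6% higher and 37.4% lower), with a main-copy median of 0.67, 75 of 77 above 0, and a median of all genes of 0.09. These comparisons share the MEF libraries. Scaling changed the size: median-ratio scaling moved the median of all genes in OSKM-iPSCs from 0.19 to 0.03 and gave 31 members higher at a main-copy median of 0.33, and quantile normalization gave medians of 0.36 and 0.38. Leaving out either MEF library left no member called in OSKM-iPSCs and 23 or 18 higher in 2iL-iPSCs.

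Rpl5 differed by 0.96 ± 0.1 in OSKM-iPSCs (limma adjusted p = 0.0033) and 1.04 ± 0.11 in 2iL-iPSCs (adjusted p = 0.00074). Rpl11 differed by 0.62 and 0.69 (adjusted p = 0.0097 and 0.0024). Rps27l had 336 and 318 FPKM in MEF cells, within the 253 to 363 of the iPSC clones, and was not called in either comparison (adjusted p = 0.65 and 0.11). Rplp0 and Rpsa were not called either. Rpl22l1 rose against MEF cells, from 21.4 and 18.5 FPKM to 84.7 and 87.8 in OSKM-iPSCs and 120 and 94.6 in 2iL-iPSCs, by 2.06 ± 0.12 and 2.37 ± 0.15 (adjusted p = 0.0013 and 0.00014). Rpl22 moved by 0.72 and 0.75 (adjusted p = 0.0098 and 0.0022), and the paralog was 14.8% of the pair in MEF cells, 31.3% in OSKM-iPSCs and 35.6% in 2iL-iPSCs.

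Rps4l was at 31.9 and 33.9 FPKM in MEF cells and was higher by 2.58 ± 0.72 in OSKM-iPSCs (limma adjusted p = 0.037) and by 3.89 ± 0.11 in 2iL-iPSCs (adjusted p = 1.8e-05). Rpl10l was at 0.05 and 0 FPKM in MEF cells. Rpl39l was at 5.46 and 4 FPKM, between the OSKM-iPSC clones (difference -0.62 ± 0.83, adjusted p = 0.54) and below the 2iL-iPSCs by 3.06 ± 0.26 (adjusted p = 0.00035). Rpl3l was listed at 0 in both MEF libraries.

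For Rpl26, Rps2 and Rps3a1, pseudogene copies moved in the opposite direction. Rpl26, at the exit tunnel and a p53 mRNA-binding protein, had 31 and 38.1 FPKM in MEF cells and 1119.4 to 1445.1 FPKM in the iPSCs, differences of 5.07 ± 0.14 and 5.19 ± 0.16 in OSKM-iPSCs and 2iL-iPSCs (limma adjusted p = 0.00097 and 2.3e-05). Its copy Gm15772 (chr5:3236431-3236868) had 523 and 521 FPKM in MEF cells and 0.808 to 6.91 FPKM in every other library. With the copies added to Rpl26 the differences were 1.09 ± 0.1 and 1.22 ± 0.13 (adjusted p = 0.0026 and 0.00084).

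Rps2 had 281 and 277 FPKM in MEF cells and 2124.6 to 2444.1 in the iPSCs, and differed by 2.94 ± 0.09 and 3.04 ± 0.1 (limma adjusted p = 0.00097 and 2.9e-05). Rps2-ps13 (chrX:52898588-52899469) had 1619.7 and 1587.6 FPKM in MEF cells and at most 5.47 FPKM elsewhere. With copies added, 85.2% of the Rps2 signal of MEF cells lay on pseudogenes, and the differences were 0.19 ± 0.09 and 0.29 ± 0.11, neither of them called (adjusted p = 0.14 and 0.057). Both MEF libraries showed this, and none of the other 16 did.

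Rps3a1, a small-subunit protein, was the main copy called lower in iPSCs, at -1.09 ± 0.09 and -0.98 ± 0.1 (limma adjusted p = 0.002 and 0.00055), with 318, 323, 363 and 331 FPKM in the 4 iPSC clones and 684 in each MEF library. Its copies Rps3a2 (chr14:88123017-88123808) and Rps3a3 (chr13:108670603-108671397) were high in those clones, at 109 to 112 and 269 to 292 FPKM, against 15.4 and 13.5 and 44.5 and 42.4 in MEF cells and at most 4.55 and 0.94 in ESCs. The summed differences were -0.07 ± 0.09 and 0.01 ± 0.09 (adjusted p = 0.53 and 0.9), so that the fall was seen only in the unsummed values. Rps3a2 and Rps3a3 are themselves members, and both were called higher in both iPSC groups.

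**Figure D5:**
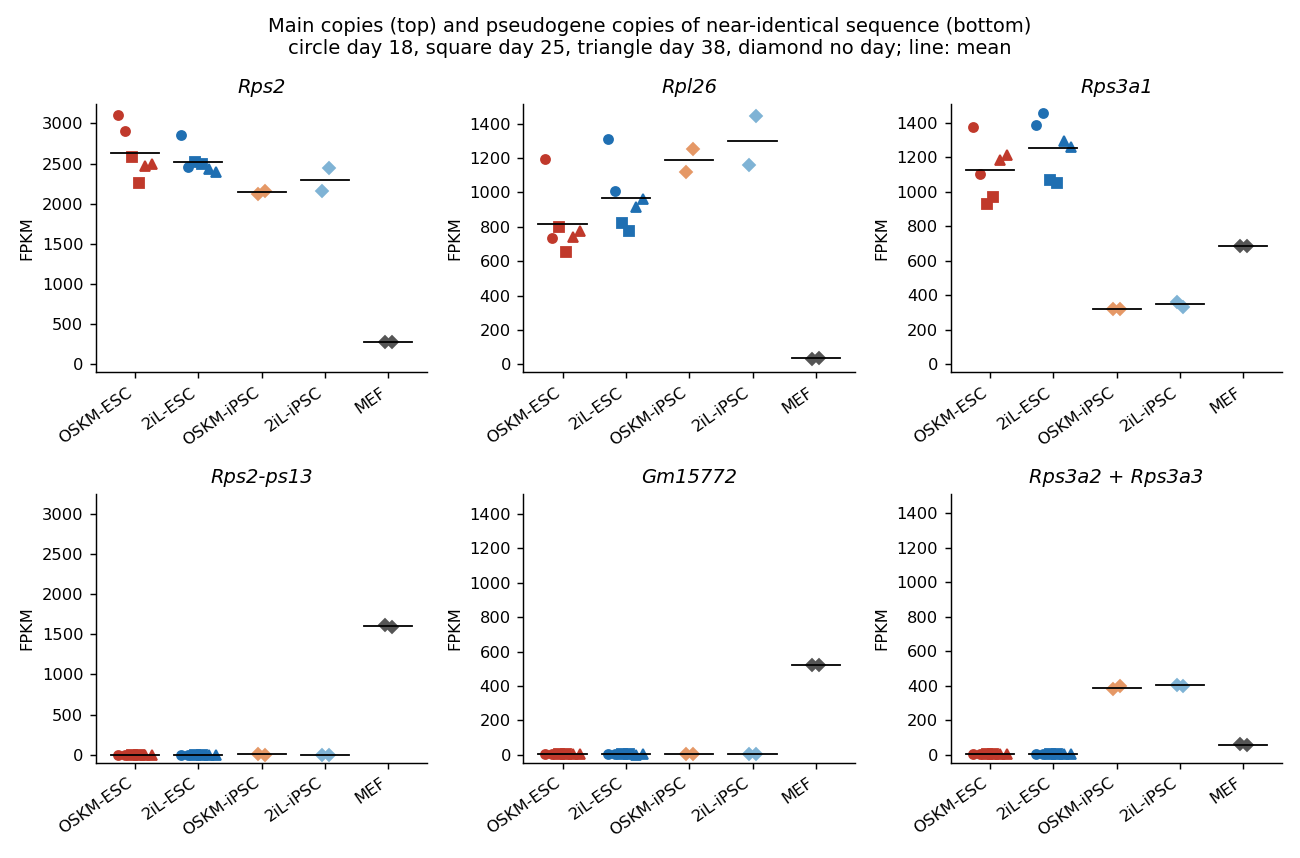
FPKM of Rps2, Rpl26 and Rps3a1 (top) and of their pseudogene copies (bottom, same scale in each column), 1 point per library (circles day 18, squares day 25, triangles day 38, diamonds cells without a day), with a line at each group's mean. In MEF cells Rps2 lies at 277 and 281 FPKM and Rps2-ps13 at 1587.6 and 1619.7.

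In all, 1088 pseudogenes shared a stretch of 50 bases with a main copy and were assigned to the copy with most stretches in common. Of these, 25 exceeded 10 FPKM in some library, and for 11 main copies the pseudogenes held over 10% of the summed FPKM in at least 1 library. Rpl30 differed in sign between the summed and unsummed values: without copies it differed by 0.38 ± 0.12 between OSKM-iPSCs and MEF cells (limma adjusted p = 0.053), and with copies by -0.52 ± 0.12 (adjusted p = 0.023). Its copy Gm12191 had 198 and 186 FPKM in MEF cells. Rpl34-ps1 had 219 to 273 FPKM in iPSCs, 132 and 135 in MEF cells and at most 4.48 in ESCs. Gm8210, a copy of Rpl29, split the 2iL-iPSCs, with 83.8 FPKM in clone 3 and 0.22 in clone 6, where Rpl29 had 617 and 1114.8 FPKM. Gm6472, a copy of Rps7, did so too, with 216 and 2.6 FPKM.

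Adding the copies lowered the number of main copies whose log2 SD over the 18 libraries exceeded 0.5 from 6 to 3. Those left were Rpl35a (0.75), Rpl29 (0.65) and Rpl3 (0.57). Rpl35a, a large-subunit protein and a Diamond-Blackfan gene, had 118 and 114 FPKM in MEF cells and 412 to 761 in the other libraries, with differences of 2.37 ± 0.15 and 2.58 ± 0.12 (limma adjusted p = 0.0014 and 5.4e-05), and none of its assigned pseudogenes exceeded 3.68 FPKM. Rpl29 differed by 2.12 ± 0.1 and 2.61 ± 0.29 (adjusted p = 0.0012 and 0.00082), or 1.51 and 1.89 with copies. Rpl3, a large-subunit protein that reaches towards the peptidyl transferase centre, differed by 1.31 ± 0.12 and 1.68 ± 0.09 (adjusted p = 0.0026 and 9.1e-05), or 1.28 and 1.6 with copies. Over all members, adding the copies gave 45 higher in OSKM-iPSCs and 74 in 2iL-iPSCs, and main-copy medians of 0.5 and 0.65.

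The TOP and mitochondrial ribosomal lists had positive medians against MEF cells, with the mitochondrial list called no more often than all genes. Of the 17 other TOP mRNAs, 13 were higher and 1 lower in OSKM-iPSCs, and 12 and 1 in 2iL-iPSCs, with medians of 0.58 and 0.76 and 82.4% and 76.5% called, against 60.3% and 78% of all genes. Of the 78 mitochondrial ribosomal proteins, 40 were higher and 6 lower in OSKM-iPSCs and 51 and 5 in 2iL-iPSCs, with medians of 0.47 and 0.65 and 59% and 71.8% called. Tpt1, the translationally controlled tumour protein, was the TOP mRNA that was lower in OSKM-iPSCs, by 0.44 (SE 0.1, limma adjusted p = 0.02).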

How the data were processed

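RNA was extracted with TRIzol, mRNA was captured on poly-T beads and libraries were made with the NEBNext Ultra kit. The authors mapped reads to GRCm38/mm10 with STAR 2.7.1a, kept uniquely mapped reads and made FPKM, TPM and coverage per gene with StringTie 2.0. The deposited values are FPKM per gene, with TPM and mean coverage (signal) beside them. TPM was not usable in 2 of 18 libraries and was recomputed from FPKM. Rows of 11 repeated gene IDs were summed, and 2 genes with failed values were left out. The submitters' notes also name Cuffdiff 2.2.1, whose output was not used here.

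Genes over 1 FPKM in at least 1 library of a comparison were tested on log2(FPKM + 1), which understates changes of low genes, with limma 3.58.1 (lmFit, eBayes with trend) in R 4.3.3. Only the groups compared entered each fit, with day as a covariate for ESCs, and p-values were adjusted over all genes tested (Benjamini-Hochberg, called under 0.05). Single members were also compared by exact permutation tests, which took no account of day. Scripts were tested on simulated data. Transcripts came from GENCODE M21 (GRCm38). Promoters came from RefSeq. Stretches of 50 bases shared between transcripts were counted as a share of the distinct stretches in all annotated transcripts of a gene. Pseudogenes were assigned to the main copy with most shared stretches.

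Members, lists and tests were chosen with earlier results of these data known. Genes named are the paralogs, their main copies, the stalk genes, Rpsa, Rps27a, Rpl5, Rpl11, Rps19 and Rpl38, the highest and lowest main copy, and per comparison the 5 main copies with the largest called rise and fall. Rpl6, Rpl9, Rpl17, Rps6, Rpl35, Rps28, Rps29, Rpl30, Rpl34, Rpl36a and the pseudogenes were named after their values were seen. Alternatives were another pseudocount, no filter, median-ratio and quantile scaling, TPM, a single fit, the study's fold threshold, a replicate block and leaving out each library. Summing pseudogene copies and leaving out day 18 were added after seeing the data. Some named items are not reported here.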

Additional observations from a re-analysis of the deposited data

Results flagged for a closer look

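The gap to the nearest library exceeded Dixon's 95% critical value in 11 of 68 groups of 6 tested, and chance flags about 1 in 20 groups. All 11 were the first library of day 18. Among OSKM-ESCs they were Rpl39 (281 FPKM), Rpl22 (196), Rps27 (697), Rps27a (941), Rpl11 (993), Rpl15 (688), Rpl26 (1190) and Rpl35a (751), and the summed share of the members (18.6%). Among 2iL-ESCs they were Rplp2 (542 FPKM) and Rps2 (2860). These flags share a library and are not independent.

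The difference between OSKM-ESCs and 2iL-ESCs changed with the day for Rpl10l (interaction adjusted p = 3e-05, limma), Rpl39l (0.00022), Rps4l (5.1e-05) and Rpl22l1 (0.035), as given above.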

How the results depend on the processing

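Of the values for single named genes, 841 kept their side of the threshold under the alternatives, 27 passed it and 48 no longer did. No called difference reversed, but differences that were not called could change sign when a library was left out, such as those of Rpl10 (-0.08 to 0.61), Rpl39 (-0.34 to 0.54), Rps4x (-0.17 to 0.56) and Rps27l (-0.18 to 0.34) between the iPSC media and of Rpl38 (-0.08 to 0.08) and Rpl39 (-0.09 to 0.07) between the ESC media. For OSKM-ESCs against 2iL-ESCs (1 member higher, 16 lower), no filter on low values gave 9 lower, median-ratio scaling 0 higher, quantile normalization 6 higher, TPM 4 higher, and the study's fold threshold of 2 gave 0 higher and 4 lower. For OSKM-iPSCs against 2iL-iPSCs (2 lower), the pseudocount of 0.1, quantile normalization and TPM each gave 1 lower, no filter gave 1 higher and 20 lower, and a single fit of all groups gave 8 lower. Against MEF cells, OSKM-iPSCs (47 higher, 1 lower) had 72 higher and 2 lower with no filter, 31 higher at a main-copy median of 0.33 with median-ratio scaling, 3 lower at a median of 0.36 with quantile normalization, and 11 higher past the fold threshold. 2iL-iPSCs (76 higher, 1 lower) had 4 lower at a median of 0.38 with quantile normalization, 2 lower at 0.53 with TPM, 18 higher and 0 lower past the fold threshold, and 0 lower with copies summed. The interaction (4 members) gave 2 with a single fit. Days within OSKM-ESCs (15) gave 69 with no filter, 8 with quantile normalization and 36 with a single fit, and days within 2iL-ESCs (67) gave 15 and 35 with the last pair. The cause of these shifts was not tested. With no filter, most residual variances were 0 and limma warned that its moderation was unreliable.

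Leaving out 1 library at a time gave 1 to 2 higher and 9 to 27 lower between the ESC media, 0 to 3 lower between the iPSC media, 0 to 63 higher and 0 to 3 lower for OSKM-iPSCs and 18 to 74 higher for 2iL-iPSCs against MEF cells, 3 to 15 for the interaction, 4 to 59 for days within OSKM-ESCs and 30 to 80 for days within 2iL-ESCs. Where a group is left with 1 library, that library is assumed to vary like the others. Over all genes the deviations of libraries with the same replicate number correlated at r = 0.131, 0.09 and 0.012 on days 18, 25 and 38, not above 0.1 on every day, so the numbers were not taken to pair them. The main copies did deviate in the same direction in both media: the median of the first minus the second library was 0.39 in OSKM-ESCs and 0.21 in 2iL-ESCs on day 18, 0.16 and 0.08 on day 25, and -0.01 and -0.05 on day 38. A replicate block gave 8 members for the interaction and 1 higher and 19 lower between the ESC media. The files hold no counts, so the counting error of low values such as those of Rpl3l is unknown.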
